A study of Takifugu alboplumbeus with 24 samples.

Results

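Oxidative phosphorylation genes were picked out of a table of gene expression in the brain of the grass puffer (Takifugu alboplumbeus) by their symbols. The symbols taken were those that begin with nduf, sdha, sdhb, sdhc, sdhd, uqcr, cyc1, cox4, cox5, cox6, cox7, cox8 or atp5, together with LOC101064509, a row named as cytochrome c oxidase subunit 7A2. This gave 63 of the 24935 rows of the table. They comprised 34 subunits of complex I, 1 of complex II (sdha), 1 of complex IV (LOC101064509) and 15 of complex V, the ATP synthase. The other members were atp5if1, which encodes the inhibitor protein of the ATP synthase, and 11 assembly factors. All 63 had a mean of at least 1 FPKM (fragments per kilobase of transcript, scaled to the mapped fragments of the library), the minimum for a test, which 17058 rows passed.

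Oxidative phosphorylation is carried out in the inner mitochondrial membrane. Complexes I to IV pass electrons from NADH and succinate to oxygen and, except for complex II, pump protons, and complex V uses the return of the protons to make ATP. Neurons depend on this pathway for most of their ATP. Assembly factors are needed to build the complexes and are not part of the finished enzymes.

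The fish were wild males taken at Minamichita in Japan, where the species spawns on the shore at spring tides. The tissue was 1 piece of ventral telencephalon, hypothalamus and pituitary, collected in the evening after live fish had reached the laboratory. Sampling was weekly at 8 dates, with 3 libraries per date and 24 in all: New moon May, Waxing moon May, Full moon June, Waning moon June, New moon June, Waxing moon June, Full moon July and Waning moon July. The 4 dates at new or full moon are spring tides (12 libraries), and the 4 at waxing or waning moon are neap tides (12 libraries). No treatment was given, and the labels record neither the age of the fish nor whether each library is 1 animal. Each library is called 1 fish here. The p-values among dates measure the spread between the libraries of a date. Those for tide, weeks and lunar cycle also rest on the spread between dates, with date as a random block. The block used 1 within-date correlation shared by all rows, not the spread between dates of each gene. These p-values can thus be too small for genes whose dates differ more than that. Read depth is unknown.

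The libraries themselves differed with the tide. The sum of all FPKM values, given in kFPKM with k as the metric prefix, was 508 ± 24.8 kFPKM at the spring dates and 463 ± 26.1 kFPKM at the neap dates (SD, n = 4 dates), and Waxing moon May, a neap date, lay among the spring dates at 501 kFPKM. Pituitary marker genes were detected in all libraries, with a mean log2 level of 10.7 ± 0.349 at spring and 9.14 ± 0.444 at neap tide (SD, n = 4 dates). The summed FPKM of these 9 rows ranged from 488.9, in a fish of Waxing moon May that stood apart, to 33910 at neap tide and from 20100 to 65840 at spring tide. The 6 neuron markers had mean log2 levels of 6.11 ± 0.185 and 6.33 ± 0.144 (SD, n = 4 dates). The 4 endothelial markers had a summed FPKM of 47.23 to 67.62 in spring and 73.56 to 104.9 in neap fish, which did not overlap. The most abundant of them was cldn5, with a mean of 40.5 FPKM. Both cldn5 (log2 change -0.85, limma, adjusted p = 0.000914) and tie1 (-0.40, limma, adjusted p = 0.0225) were lower at spring tide. Neither kdr (-0.26, limma, adjusted p = 0.115) nor cldn5b (-0.03, limma, adjusted p = 0.882) passed. Of 6 oligodendrocyte markers tested, 2 had a higher and 4 a lower level at spring tide, with a median change of -0.04. Only olig2 passed, and it was lower (-0.53, limma, adjusted p = 0.0424). The 2 higher ones were the abundant mbp rows LOC101062328 (764 FPKM, 0.25, limma, adjusted p = 0.355) and LOC101075449 (508 FPKM, 0.35, limma, adjusted p = 0.142). The part of these cell types in the tide results was not tested. Skeletal muscle markers were low, with 1 of 6 rows above the minimum, a myh row (LOC100462941) with a mean of 5.16 FPKM. Their summed FPKM reached 12.7 in spring and 23.43 in neap fish. The piece therefore held pituitary and brain tissue, as its label says. In such a mixed tissue, fewer cells of a type and less RNA per cell cannot be told apart.

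Levels of the members spanned from 1.64 to 772 FPKM, a scale that is corrected for transcript length (plot of levels by complex). Complex V had the highest levels, with a median of 253 FPKM over its 15 genes. Its top gene was atp5mf, for subunit f of the membrane part, at 772 FPKM. Its lowest was atp5f1a, for the alpha subunit of the F1 head, at 155 FPKM. Complex I had a median of 107 FPKM and ran from ndufb11 at 30.2 FPKM to ndufa1 at 275 FPKM, both accessory subunits of the membrane arm. Within complex I the 5 core subunits, which correspond to those of bacterial enzymes, had a median of 71.2 FPKM. Most of them carry redox centres or form the quinone site. The 29 accessory subunits had a median of 111 FPKM. Core subunits named only by an LOC number were not among the 5. Of these, LOC101067620 (flavoprotein 1) had 96.8 FPKM and LOC101079933 (iron-sulfur protein 8) had 126 FPKM, both above the core median. LOC101065656 (75 kDa subunit) and LOC101066592 (subunit 8) were below it, at 39.1 and 6.21 FPKM. sdha, the flavoprotein that oxidises succinate, had 121 FPKM, and atp5if1 had 41.1 FPKM. Assembly factors were lower, with a median of 11.9 FPKM, between ndufaf6 at 2.41 FPKM and sdhaf4, a chaperone of sdha, at 61.3 FPKM.

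**Figure D1:**
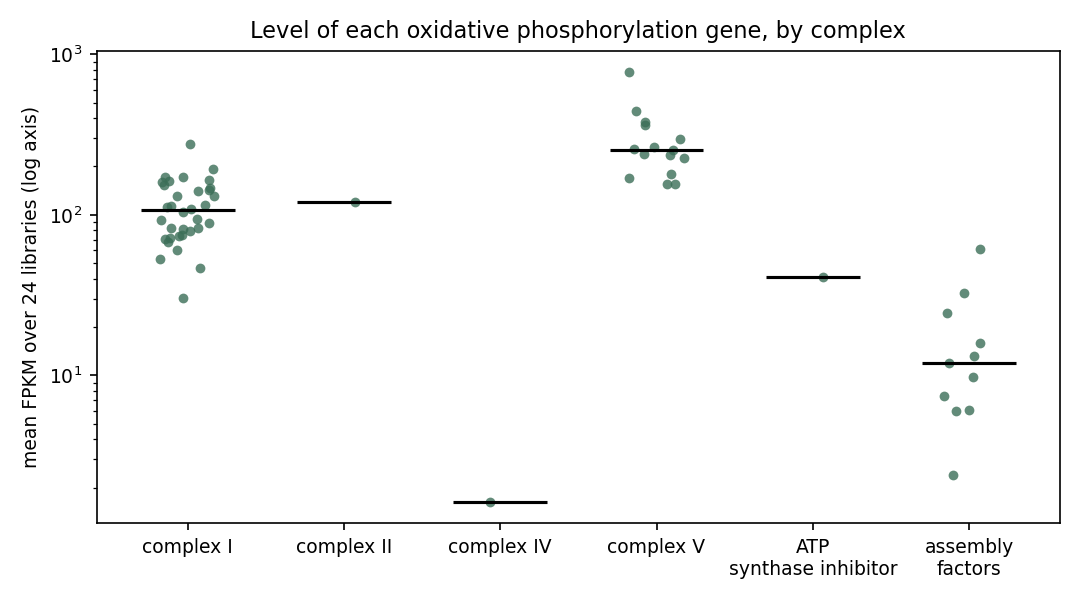
Mean FPKM of each of the 63 genes over 24 libraries, on a log axis, by complex; each point is 1 gene and the bar is the median of the group. Complex V lies highest with a median of 253 FPKM, and the assembly factors have a median of 11.9 FPKM.

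The symbol rule leaves out many subunits, because the table names them only by an LOC number. A search of the product names, made after the table had been seen, found 48 further subunit rows, of which 45 were tested: 5 of complex I, 5 of complex II, 13 of complex III, 19 of complex IV and 3 of complex V. These rows are reported separately and are not counted as members. Among them LOC115246437, subunit 6C-1 of complex IV, had 493 FPKM and the 5 complex II rows had a median of 29.5 FPKM. Several subunits had more than 1 copy: 18 KEGG orthology numbers were shared by 43 of these rows and members. For the c ring of the ATP synthase, atp5mc1 had 379 FPKM, atp5mc3 had 169 FPKM and LOC101062993 had 75.0 FPKM. For the alpha subunit, LOC101074081 had 184 FPKM, beside 155 FPKM for atp5f1a. ndufs1, the largest core subunit of complex I, had 46.9 FPKM and its copy LOC101065656 had 39.1 FPKM. Reads shared between near-identical copies may have been split between them, so these levels are uncertain.

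More than 1 in 2 members differed among the 8 dates. Of the 63, 38 (60.3%) passed a test for any difference among dates (limma on log2(FPKM + 1), adjusted p below 0.05), against 41.3% of all rows tested. Rows with a mean of at least 5 FPKM, as most members had, passed more often, with 5823 of 11862 when tested alone. This test uses only the spread between the fish of a date. Of complex I, 22 of 34 genes passed, of complex V 9 of 15 and of the assembly factors 4 of 11. Sdha, atp5if1 and LOC101064509 also passed. With the FPKM sum of each library as a covariate, 3 of the 63 members passed, against 7.70% of all rows.

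The size of the change over dates was read for the parts of complexes I and V, as a description with no test between them. The range, meaning the highest minus the lowest date mean on the log2 scale, had a median of 0.26 in the complex I core and 0.45 in its accessory subunits, of which 2 of 5 and 20 of 29 passed. In complex V it was 0.24 in the 5 genes of the F1 head, the catalytic part, where atp5f1d alone passed. It was 0.39 in the 4 genes of the peripheral stalk, which holds the head in place, and 3 of them passed. In the 4 other membrane subunits (atp5mf, atp5mg, atp5me and atp5md), which act in the pairing of ATP synthases in the cristae, it was 0.60 and all 4 passed. The median range of all 17058 rows was 0.46.

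Waxing moon May and Waxing moon June, both neap dates of the same moon phase, stood at opposite ends. The highest date mean was at Waxing moon May for 33 of 63 members (52.4%), against 9.71% of all rows. The lowest was at Waxing moon June for 36 of 63 (57.1%), against 13.6% of all rows. The summed FPKM of the 63 members was 9837 ± 221 at Waxing moon May and 7331 ± 228 at Waxing moon June (SD, n = 3 fish). As a share of all FPKM, they made up 1.97% ± 0.0705 and 1.66% ± 0.0411 at these dates. Over the tides that share was 1.77% ± 0.0415 at spring and 1.77% ± 0.138 at neap tide (SD, n = 4 dates).

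A score was formed for each library as the median, over the genes of a complex, of the log2 level minus the mean of the gene over all 24 fish. For complex I this score was 0.18 ± 0.0529 at Waxing moon May, 0.13 ± 0.0231 at Full moon July and 0.10 ± 0.0124 at Full moon June (SD, n = 3 fish). It was 0.0037 ± 0.0568 at New moon May and 0.02 ± 0.0970 at New moon June. At the 3 later neap dates it was -0.16 ± 0.0465 (Waning moon June), -0.20 ± 0.0307 (Waxing moon June) and -0.08 ± 0.146 (Waning moon July). Every fish of Waning moon June and Waxing moon June lay below every spring fish, whereas 1 fish of Waning moon July, at 0.07, lay among the spring fish.

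Complex V followed the same order at its ends, with 0.16 ± 0.0566 at Waxing moon May and -0.20 ± 0.0541 at Waxing moon June (SD, n = 3 fish). Complex IV, seen through its 19 LOC-named genes, had 0.24 ± 0.0801 and -0.25 ± 0.0707 at these dates. Complex III, with 13 LOC-named genes, had a smaller spread, from -0.08 ± 0.0451 at Waning moon June to 0.08 ± 0.0177 at Full moon June. Complex II, with 5 LOC-named genes, did not share these ends. Its score was -0.08 ± 0.0699 at Waxing moon May and 0.02 ± 0.160 at Waxing moon June, and it was lowest at Waning moon June, at -0.17 ± 0.0475. The assembly factors had another order: their score was 0.12 ± 0.0707 at Full moon June and -0.12 ± 0.0518 at New moon May, and 0.06 ± 0.0936 at Waxing moon June.

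**Figure D2:**
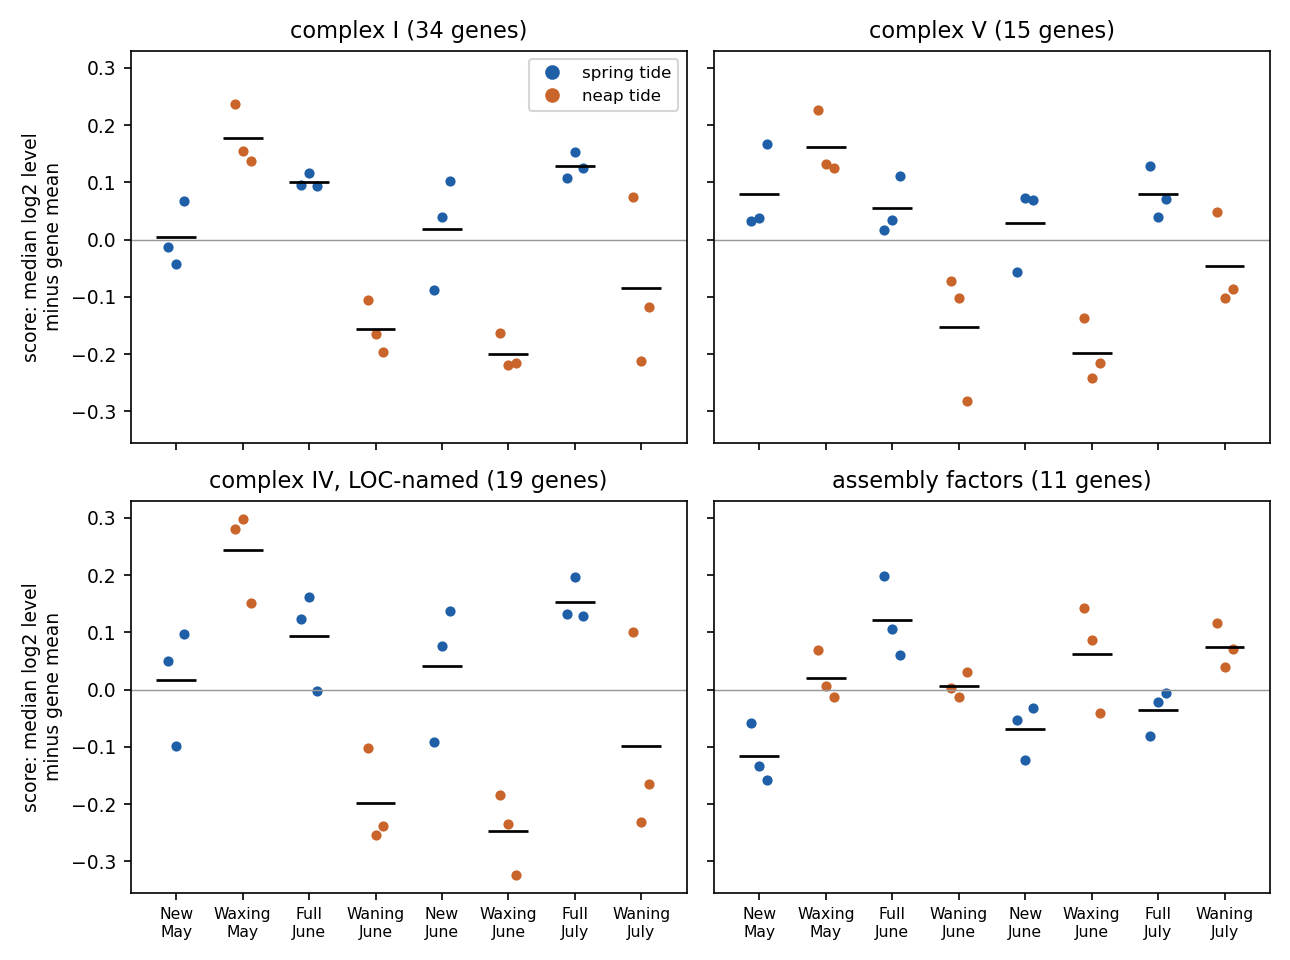
Score of each library (median over genes of the log2 level minus the mean of the gene) at the 8 dates in order of time; points are fish, bars are date means, blue is spring and orange is neap tide. The 3 fish of Waxing moon May lie between 0.14 and 0.24 for complex I, above most spring fish, and those of Waxing moon June between -0.22 and -0.16.

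Other gene groups were read beside these scores, and their part in the result was not tested. Cytosolic ribosomal proteins (63 genes) had scores of 0.22 ± 0.0698 at Waxing moon May, 0.41 ± 0.0582 at Full moon July and -0.36 ± 0.0808 at Waxing moon June (SD, n = 3 fish). Of the 63, 62 (98.4%) differed among dates, against 41.3% of all rows. Mitochondrial ribosomal proteins (69 genes), which make the mitochondrially encoded subunits, had date means between -0.09 and 0.07, and 23 (33.3%) passed, below the share of all rows. Enzymes of the citric acid cycle (16 genes), which supply NADH and succinate, had date means between -0.10 and 0.06, and 1 (6.25%) passed. The FPKM sum was 501 kFPKM at Waxing moon May and 441.8 kFPKM at Waxing moon June. The mean log2 level of 3 erythrocyte markers was 8.61 and 6.92 at these dates, the highest and the lowest of the 8.

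The 10 members with the smallest p among dates were ndufa5, ndufb9, atp5if1, ndufb2, ndufb3, sdhaf4, atp5pf, ndufs4, atp5po and ndufa6. ndufa5, an accessory subunit of the arm of complex I that projects into the matrix, had 193.1, 200.2 and 199.6 FPKM in the fish of Waxing moon May and 116.7, 112.1 and 123.5 FPKM in those of Waxing moon June. Its spring fish lay between these dates or close to the upper one, with date means from 155 to 189 FPKM. The range over dates was 0.75 on the log2 scale (limma, adjusted p = 0.000151). For ndufb9, an accessory subunit of the membrane arm, the means were 160 ± 17.5 FPKM at Waxing moon May and 108 ± 3.49 FPKM at Waxing moon June (SD, n = 3 fish). The 4 spring dates lay between 144.5 and 159 FPKM, below Waxing moon May by less than the spread of its 3 fish. ndufb2 and ndufb3, also in the membrane arm, had ranges of 0.64 and 0.70, and ndufa6 had 0.71.

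atp5pf encodes factor F6 of the peripheral stalk. It had 385.8, 359.8 and 363.9 FPKM in the fish of Waxing moon May, and date means from 312 to 326 FPKM at spring tide. At the 3 later neap dates the means were 240.2, 242.5 and 259 FPKM. The fish of Waxing moon May were thus above every other fish of the study for this gene. atp5po, the oligomycin sensitivity subunit at the top of the stalk, had 292 ± 23.99 FPKM at Waxing moon May and 214.5 ± 8.06 FPKM at Waxing moon June (SD, n = 3 fish), with spring dates between 265 and 271 FPKM.

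atp5if1, which blocks ATP hydrolysis by the synthase when the proton gradient fails, had the same dates near its top and at its bottom as the enzyme it inhibits. It had 47.41, 48.9 and 46.7 FPKM at Waxing moon May and 31.05, 31.5 and 31.69 FPKM at Waxing moon June. Its highest date was Full moon July at 47.9 ± 2.16 FPKM, which overlapped with Waxing moon May. sdhaf4 had another top date: 83.4 ± 8.52 FPKM at Full moon June, against 48.9 ± 2.80 FPKM at Waxing moon June (SD, n = 3 fish). sdha, the partner of sdhaf4, had another order than most subunits. Its lowest date was Full moon July, with 106 ± 5.45 FPKM, and its highest means were at Full moon June, with 129.5 ± 11.3 FPKM, and Waning moon June, with 129.4 ± 14.7 FPKM (SD, n = 3 fish). Waxing moon June and Waning moon July, at 128.1 and 128 FPKM, lay within the spread of these. Waxing moon May stood at 113 ± 4.81 FPKM.

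**Figure D3:**
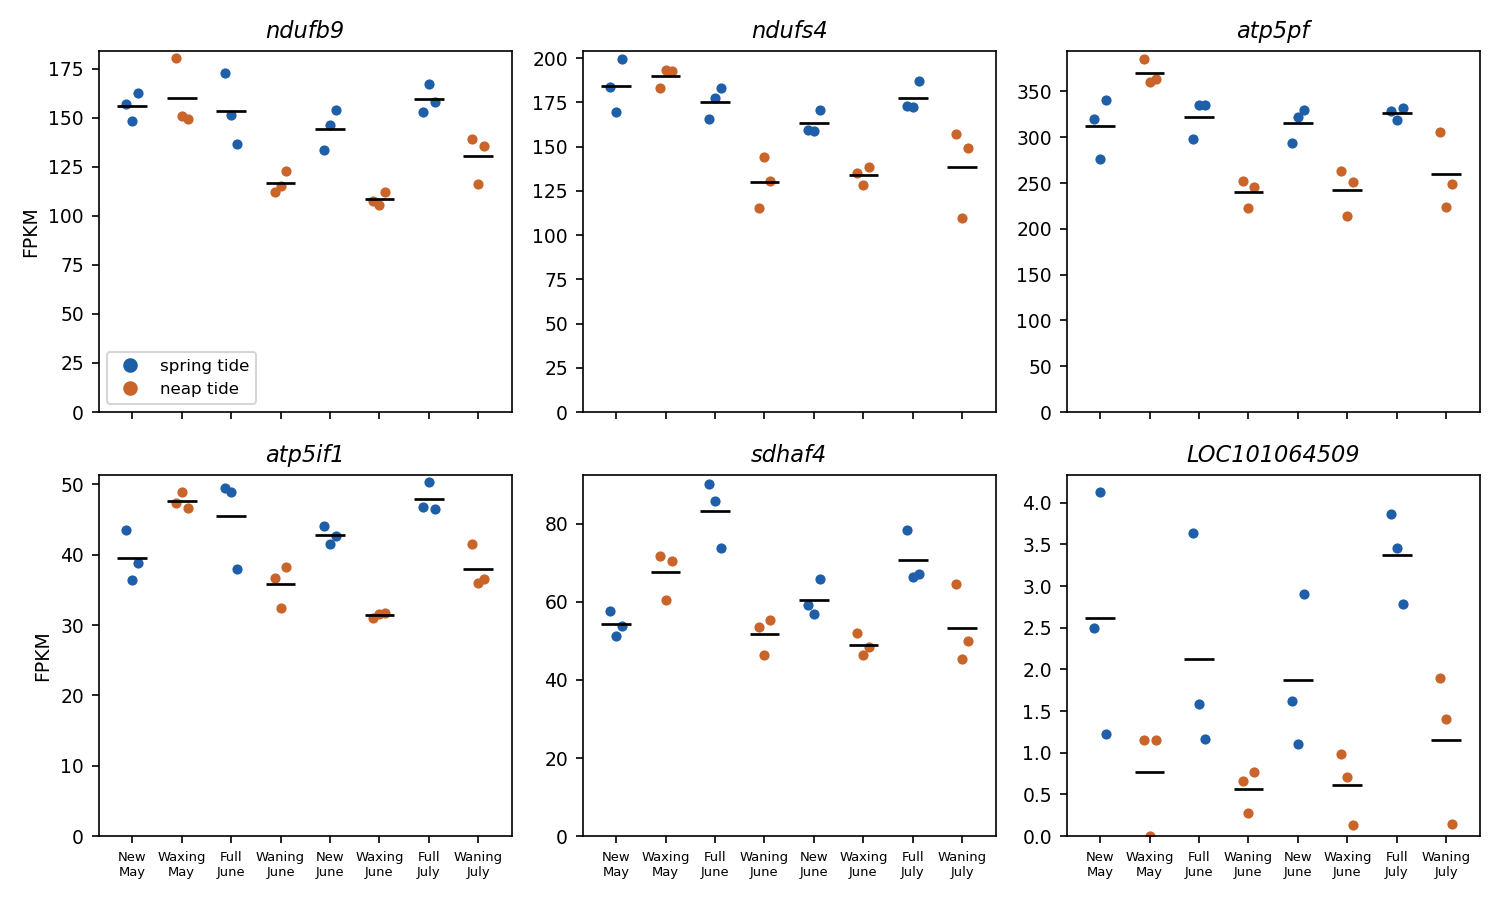
FPKM of 6 genes in each of the 24 fish by date; points are fish, bars are date means, blue is spring and orange is neap tide, and the vertical axes start at 0. For atp5pf the 3 fish of Waxing moon May, at 385.8, 359.8 and 363.9 FPKM, lie above all other fish.

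Between the tides, 1 of the 63 members passed (limma, with date as random block and 0.05 as the limit for the adjusted p), against 5.63% of all rows tested. That member was LOC101064509, which was higher at spring tide. Of the others, 48 had a higher and 14 a lower mean log2 level at spring tide, none past the threshold, and 20 of the 63 had an unadjusted p below 0.05, against 26.5% of all rows. The median log2 change of the 63 members, spring minus neap, was 0.11, and of all rows -0.04. This direction depended on the scaling: the median of the members was -0.02 after scaling to equal FPKM sums (TPM), a scaling that also moved the median of all rows to -0.15, and -0.05 with that sum held as a covariate. Leaving out 1 library gave 6 members without Waning moon July replicate 1, 3 without Waxing moon May replicate 1, 2 without Full moon June replicate 3, and otherwise 1 or 0. Calls over all 17058 rows rose too in these 3 settings, to 1592, 1725 and 1819, from 961 with all libraries. With date means as samples, 0 members and 1 of all rows passed.

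LOC101064509 is a minor row. In the spring fish it had a lowest value of 1.10, a median of 2.645 and a highest of 4.13 FPKM, and in the neap fish 0, 0.740 and 1.90 FPKM. The fish of the tides overlapped, but the 4 spring date means, from 1.88 to 3.37 FPKM, lay above the 4 neap ones, from 0.570 to 1.15 FPKM. The means were 2.50 ± 0.657 and 0.774 ± 0.265 FPKM (SD, n = 4 dates), a log2 change of 0.98 ± 0.27 (SE) on the log2(FPKM + 1) scale (limma, adjusted p = 0.0361). It passed the minimum of 1 FPKM only through its spring level. With a minimum of 5 FPKM it was not tested, and with a pseudocount of 0.1, with the FPKM sum or the pituitary score as a covariate, with date means as samples, or with the tide as 2 groups it did not pass. It also fell short when any 1 of 9 of the 24 libraries was left out (2 each of Waxing moon June and Full moon July, and 1 each of New moon May, Full moon June, Waning moon June, New moon June and Waning moon July), with adjusted p up to 0.0585. Without 1 date it passed only when that date was Waxing moon May or Full moon June. A row of the same product name, LOC101072717, had 449 FPKM and a log2 change of 0.28, short of the threshold (limma, adjusted p = 0.171). LOC101064509 made up 0.293% of the FPKM of the 3 rows that share its KEGG number. Reads shared with the abundant copy make its level uncertain.

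In complex I, 30 of 34 genes had a higher mean log2 level at spring tide and 4 a lower one, with a median change of 0.14 (TPM 0.0080, FPKM sum as covariate -0.06). None passed, and 10 had an unadjusted p below 0.05 in limma. The accessory subunits had a median of 0.16 and the core subunits of 0.09. The smallest p in the complex was that of ndufb9. It had a lowest value of 133.6, a median of 153 and a highest of 172.6 FPKM in spring fish, and 105.5, 119 and 180.4 FPKM in neap fish. The log2 change was 0.26 ± 0.09 (SE, by limma, adjusted p = 0.0648). The neap values spanned those of spring tide, and the 3 fish of Waxing moon May, from 149.6 to 180.4 FPKM, were the highest of the neap group. For ndufs4, an accessory subunit that stabilises the NADH-binding module and whose loss causes a Leigh-like disease in mice, the means were 175 ± 8.80 and 148 ± 27.9 FPKM (SD, n = 4 dates), a log2 change of 0.26 ± 0.09 (SE, by limma, adjusted p = 0.0753). The largest change was that of ndufa2, 0.46 ± 0.19 (SE, by limma, adjusted p = 0.126). At the other end stood ndufs1, at 45.2 ± 1.95 and 48.6 ± 1.99 FPKM (SD, n = 4 dates), with date means of the tides that did not overlap and a log2 change of -0.10 (limma, adjusted p = 0.187, not past the threshold). Its copy LOC101065656 had a change of -0.14 (limma, adjusted p = 0.127).

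In complex V, 13 of 15 genes had a higher level at spring tide, with a median change of 0.12 (TPM -0.01, FPKM sum as covariate -0.02), and 0 passed in limma, with 4 at an unadjusted p below 0.05. The medians were 0.07 for the F1 head, 0.10 for the c ring, 0.13 for the peripheral stalk and 0.17 for the other membrane subunits. The smallest p was that of atp5md, which encodes a small subunit of the membrane part, with 259.5 ± 26.6 and 221 ± 46.6 FPKM (SD, n = 4 dates) and a log2 change of 0.25 ± 0.11 (SE, by limma, adjusted p = 0.135). atp5f1a and atp5f1b, for the alpha and beta subunits that form the catalytic sites, had changes of -0.02 and -0.07. atp5if1 had 43.9 ± 3.59 and 38.2 ± 6.87 FPKM (SD, n = 4 dates), a log2 change of 0.21 (limma, adjusted p = 0.134). sdha had 117 ± 10 and 124.5 ± 8.00 FPKM (SD, n = 4 dates), a change of -0.09 (limma, adjusted p = 0.395) that turned to 0.07 once the FPKM sum was a covariate.

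Of the 11 assembly factors, 4 had a higher and 7 a lower level at spring tide, a split close to that of all rows, of which 41.5% were higher. Their median change was -0.09, against -0.04 over all rows, and it was -0.22 under TPM, against -0.15 over all rows. None passed in limma, and 4 had an unadjusted p below 0.05. ndufaf6, needed for the early assembly of complex I, had date means of 1.82 to 2.27 FPKM at spring and 2.40 to 3.23 FPKM at neap tide. These did not overlap. The share of all rows with date means apart in this way was not computed, for this or other genes so described. On either side of the midpoint of the tide means, 19 of 24 fish lay with their tide. That midpoint comes from the same fish, so the count is no test. The log2 change of -0.32 ± 0.13 (SE) stayed short of the threshold (limma, adjusted p = 0.129). ndufaf7, a methyltransferase that takes part in complex I assembly, had a change of -0.20 (limma, adjusted p = 0.117). sdhaf4, 1 of the 4 that were higher, had 67.2 ± 12.7 and 55.4 ± 8.34 FPKM (SD, n = 4 dates) and a change of 0.27 ± 0.09 (SE, by limma, adjusted p = 0.0784).

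**Figure D4:**
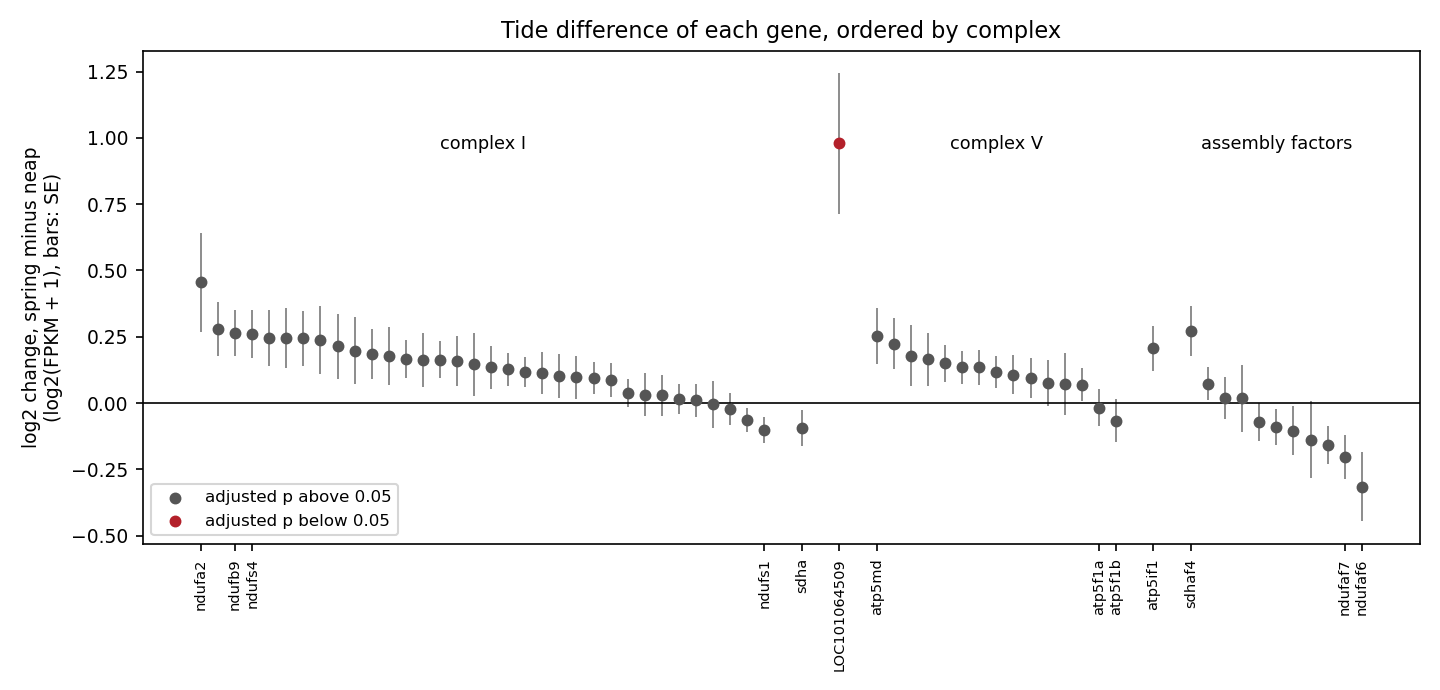
Log2 change between the tides (spring minus neap, on log2(FPKM + 1)) of each of the 63 genes, grouped by complex, with the SE as bars; symbols are printed for genes described in the text, and red marks an adjusted p below 0.05. LOC101064509 is the 1 gene past the threshold, at 0.98; 30 of 34 complex I genes and 13 of 15 complex V genes lie above 0 and 7 of 11 assembly factors below it, on the FPKM scale.

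The tide difference of the members depended most on the 2 waxing moon dates, in opposite ways, though other dates mattered too. In these fits the 2 moon phases of a tide had equal weight. With 1 date left out, the other date of its phase thus counted as much as both dates of the other phase. How far this weighting shaped the changes given here was not tested. With another date left out, members with an unadjusted p below 0.05 in limma numbered from 7 (Waning moon June) to 24 (Waning moon July). With all dates they were 20. Calls over all rows went from 961 to 7 without Full moon July, 11 without New moon May and 1212 without Full moon June. Without Waxing moon June, 0 of the 63 members passed in limma, against 0.0176% of all rows that passed. Of the members, 2 had an unadjusted p below 0.05. The median change was then 0.0198 over the members (0.11 with all dates), 0.03 in complex I (0.14), where 23 of 34 genes were higher at spring tide, and 0.02 in complex V (0.12). Without Waxing moon May, 30 of the 63 members passed, 29 higher and 1 lower at spring tide, against 24.2% of all rows, and the median change of the members was 0.19. By complex, 18 of 34 genes of complex I passed, 8 of 15 of complex V, 2 of 11 assembly factors, atp5if1 and LOC101064509. ndufb9 then had a log2 change of 0.40 ± 0.07 (SE, by limma, adjusted p = 0.000853), atp5pf of 0.38 ± 0.08 (SE, by limma, adjusted p = 0.00385) and ndufaf7 of -0.26 ± 0.09 (SE, by limma, adjusted p = 0.0362). When the within-date correlation was estimated anew without that date (0.137, against 0.264 with it), 39 members passed, 35 higher and 4 lower, against 33.0% of all rows. The 4 lower ones were ndufs1, ndufaf2, ndufaf6 and ndufaf7.

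That count also depended on the scaling. Without Waxing moon May, 23 members passed after TPM scaling, 12 higher and 11 lower at spring tide, against 50.1% of all rows. Once the FPKM sum was a covariate 0 members passed in limma, against 0.305% of all rows that passed. Of the members, 4 then had an unadjusted p below 0.05. The 12 higher included ndufa2, ndufa5, ndufa6, ndufb2, ndufb3, ndufb9, ndufs4, atp5pf, atp5md, atp5if1 and sdhaf4, and the 11 lower included sdha, atp5f1b, ndufs1, ndufa9 and 5 complex I assembly factors. With all 8 dates and TPM scaling 5 members passed, against 17.5% of all rows: LOC101064509 higher, and ndufa9, ndufs1, ndufaf1 and ndufaf7 lower at spring tide. The choice to look at Waxing moon May alone was made after the scores had been seen, and it is the date that held the fish low in pituitary transcripts. Without that single fish, 1 member passed for the tide, as with all fish.

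Among LOC-named subunits 0 of 45 passed for the tide in limma, with 11 at an unadjusted p below 0.05. Complex IV had 16 of 19 genes higher at spring tide and a median change of 0.17, and complex III 7 of 13 and a median of 0.02. Complex II was split, with 3 of 5 higher and 2 lower, changes from -0.37 to 0.24 and a median of 0.14.

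Genes that work beside the complexes were read for the tide too, where 5.63% of all rows passed. Calls made up 15.4% of 13 further assembly factors and 11.1% of 18 genes for mitochondrial transcription, both short lists. Of 13 further assembly factors 1 was higher and 1 lower at spring tide. These were acad9, with a log2 change of 0.25 and an SE of 0.07 (limma, adjusted p = 0.0375), and ecsit, with -0.28 and an SE of 0.07 (limma, adjusted p = 0.0316). In mammals both bind ndufaf1 in 1 assembly complex of complex I, and ndufaf1 itself had a change of -0.16, short of the threshold (limma, adjusted p = 0.160). Of 18 genes for mitochondrial transcription and its control, esrra, a nuclear receptor that drives genes of oxidative phosphorylation in mammals, was higher (0.42, SE 0.12, limma, adjusted p = 0.0411) and tfb2m, a mitochondrial transcription factor, lower (-0.28, SE 0.07, limma, adjusted p = 0.0331). These 4 kept their signs under quantile, TPM and median-ratio scaling and when the FPKM sum was a covariate, and each lost its call under at least 2 of these 4 settings. None passed among 26 genes of import and cristae, 16 of the citric acid cycle, 13 electron carriers, 8 of glycolysis, 5 ATP and phosphate carriers or 69 mitochondrial ribosomal proteins. Of 29 proteasome subunits psmb3 passed (0.25, limma, adjusted p = 0.0452), though not under TPM or quantile scaling or with the FPKM sum as covariate. Of 63 cytosolic ribosomal proteins 3 passed, all higher, with a median of 0.27 over the list that was -0.10 with the FPKM sum as covariate. With that covariate, or under TPM or quantile scaling, 0 of them passed in limma. Without Waxing moon May 56 of the 63 passed, against 24.2% of all rows.

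Within the spring tides, 0 of 63 members differed between new and full moon, against 0.0176% of all rows, and 2 had an unadjusted p below 0.05 in limma. The mean log2 level was lower at new moon for 51 of 63, with a median change of -0.10 (all rows -0.0091). The smallest p was that of sdhaf4, with a change of -0.41 and an SE of 0.13 (limma, adjusted p = 0.255). Its date means were 54.25 and 60.6 FPKM at the new moons and 83.4 and 70.7 FPKM at the full moons, which did not overlap. With 2 dates on each side and a gene picked by its p, this is no test. Within the neap tides, 0 of 63 differed between waxing and waning moon, against 0% of all rows. An unadjusted p below 0.05 was found for 1 of them, against 2.85% of all rows. There the mean was higher at waxing moon for 50 of 63 (median 0.09). Yet the 2 waxing moon dates differed: Waxing moon May was the highest date for 33 of 63 members, and Waxing moon June the lowest for 36 of 63.

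A steady change over the weeks was tested next. With the tide in the model, 0 of 63 had a slope past the threshold, against 0% of all rows. Of the 63, 2 had an unadjusted p below 0.05 in limma, against 8.48% of all rows. The slope was negative for 47 of 63, with a median of -0.01 per week on the log2 scale (all rows 0.0050). For atp5po and sdhaf3 the slopes were -0.03 and -0.05 per week. Without Waxing moon May the median slope was 0.01 per week.

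The tide difference was not shown to change from the first lunar cycle, weeks 1 to 4, to the second, weeks 5 to 8. In the test of the interaction 0 of 63 members passed, against 0% of all rows. Of the 63, 3 had an unadjusted p below 0.05 in limma, against 3.56% of all rows. The difference was more positive in the second cycle for 45 of 63, with a median of 0.13 (all rows -0.03). It was 0.35 ± 0.17 (SE) for atp5if1 and -0.36 ± 0.12 (SE) for ndufaf2, a factor of late complex I assembly (limma, adjusted p = 0.993 for each).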

How the data were processed

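The authors deposited FPKM values with 2 decimals for 24 libraries. Per the submitters' processing notes, the tools were HISAT2 2.0.4 and RSEM 1.2.12; per the labels' protocols, libraries were poly-A selected and strand-specific. No genome build is named in those sources, gene names come from the deposited table, and that table holds no read counts, so depth is unknown here and precision rests on the number of fish. Members were found by symbol, and the members and lists were chosen with earlier results of these data known. Values were taken as log2(FPKM + 1), a scale that shrinks the changes of low genes, and rows with a mean of at least 1 FPKM were tested in R 4.3.3 by limma 3.58.1, with statmod 1.5.0 for the block and a trend on intensity. For the tide the 4 moon phases were groups and the date a random block (within-date correlation 0.264); the trend over weeks and the interaction with lunar cycle used the same block (0.276 and 0.290). The test among dates had no block. P-values were adjusted by Benjamini-Hochberg over all 17058 rows, with 0.05 as the threshold. The tests were tested on simulated data.

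Named genes are the members past the threshold (other than among dates), the highest and lowest of each complex, the smallest p of each complex for tide and trend, the 10 smallest p among dates, sdha, LOC101064509 and copies of a subunit. The genes lost or gained when a date or a scaling was changed, and ndufs4, ndufa2, ndufs1, ndufaf6 and ndufaf7 for the tide, were named after their values had been seen. The trend of 1 of these genes is not reported here. Alternatives were other scalings, pseudocounts, minimums, covariates, date means, 2 tide groups, the replicate number as a block, and each library and date left out.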

Additional observations from a re-analysis of the deposited data

Results flagged for a closer look

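In 5 of 40 groups of 4 date means examined (20 named genes, each tide apart), 1 date stood apart from the other 3, with a gap to its nearest neighbour, as a share of the group's range, above Dixon's critical value. Chance flags about 1 in 20 such groups, and the genes of 1 date are not independent. Waxing moon May was high among the neap dates for atp5pf (369.8 FPKM, gap over range 0.852), ndufa1 (321.9 FPKM, 0.847) and ndufs4 (189.5 FPKM, 0.857). It was low among them for sdha (112.6 FPKM, 0.917). Full moon June was low among the spring dates for ndufa6 (172.6 FPKM, 0.899).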

How the results depend on the processing

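The count of members called was 0 under every setting run for new against full moon, waxing against waning moon, the slope over weeks and the interaction with lunar cycle. For the tide, with 1 member called, the count was 5 under TPM and 2 under median-ratio scaling. It was 0 with a pseudocount of 0.1, a minimum of 5 FPKM (61 members tested), the FPKM sum or the pituitary score as covariate, date means as samples, or 2 tide groups. Leaving out 1 library or date gave 0 to 39; the highest of these, 39, and 23 and 0 under TPM and the FPKM sum covariate, are for Waxing moon May left out with a further change chosen after seeing the data, and 30 is for that date alone. Over all rows the tide calls, 225 higher and 736 lower, were 116 and 2870 under TPM, 348 and 323 under median-ratio scaling, 269 and 436 under quantile scaling, and 0 and 5 with the FPKM sum as covariate. With date means as samples these calls were 1 and 0. Among dates, 38 members became 3 with that covariate (34 to 42 with 1 library left out), and 61 of 108 with the LOC-named subunits, counted in after seeing the data. The median tide change of 0.11 was -0.0177 under TPM and -0.0518 with the FPKM sum as covariate (0.0158 to 0.193 with 1 library or date left out, the lowest for Waxing moon May left out under TPM, and 0.0198 without Waxing moon June). The median slope ran from -0.0256 to 0.0135 per week when 1 was left out, the latter without Waxing moon May. With the FPKM sum as covariate the tide change turned sign for atp5if1 (-0.0501), atp5md (-0.0692), ndufb9 (-0.0132) and sdha (0.0708). For sdha the tide change ran from -0.316 to 0.120 when 1 library or date was left out. Its lowest value was for Waxing moon May left out under TPM. Its highest was for that date left out with the FPKM sum as covariate. The slope turned sign for atp5if1 when 1 was left out (-0.0350 to 0.0325 per week) and for sdha under quantile scaling (0.00569) and when 1 was left out (-0.0258 to 0.0135). The causes were not tested. Whether the replicate numbers pair the fish is not settled, since no chance level was computed. Over 84 pairs of dates and numbers the deviations correlated from -0.303 to 0.243 (median 0.0165, 23 above 0.1). Of 24 libraries, 13 were closest to their own number. With the replicate block, 1 member was called for the tide and 36 among dates. Without read counts, what depth limits cannot be given; 3 fish a date and 4 dates a tide set the precision.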
